A study of Mus musculus with 12 samples.

Results

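The complement components and receptors examined here were 9 genes, chosen by symbol from the 24062 gene symbols counted in mouse heart RNA: C1qa, C1qb, C1qc, C3, C4b, Cfb, C3ar1, C5ar1 and Serping1. All 9 were in the table and all passed the filter on low counts in every comparison. Hearts came from 4 groups of 3 mice each: 2-month-old WT mice, 2-month-old KI/KI mice homozygous for the Lemd2 c.T38>G allele in every cell, and, on postnatal day 1 (P1), floxed mice and cKO mice. Both P1 groups carried floxed Lemd2, and the cKO mice also carried Myh6-Cre, which deletes exon 1 in cardiomyocytes and leaves the gene in the other heart cells. The labels give the controls as floxed with no mention of Cre, so effects of the deletion and of Cre itself cannot be told apart. Lemd2 encodes an inner nuclear membrane protein that binds chromatin and lamins, and the comparisons asked how the heart's RNA differed when this protein was mutated or absent from cardiomyocytes.

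Complement is a cascade of blood and tissue proteins that marks cells and debris for removal. C1q, a recognition protein built from the A, B and C chains encoded by C1qa, C1qb and C1qc, binds its targets and starts the classical pathway, and in most tissues, the heart included, it is made mainly by macrophages. Cleavage of C4 and C3 then coats the target, factor B (Cfb) supports the amplifying alternative pathway, and the released fragments C3a and C5a act on myeloid cells through the receptors C3ar1 and C5ar1. The C1 inhibitor, encoded by Serping1, blocks the proteases that C1q activates. The liver makes most circulating C3, C4 and factor B, and fibroblasts and epithelia make them locally.

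Levels are given as CPM, read counts scaled for library size by the TMM method over all 12 hearts, and as CPM per kilobase of transcript where genes are compared with each other. Library totals lay between 37063669 and 44789753 counts, and 3 counts, taken as the floor, corresponded to 0.0599 to 0.0965 CPM (counting error only). Lemd2 stood between 32.0 and 34.8 CPM in WT hearts, 24.8 and 25.7 in KI/KI, 24.3 and 25.4 in floxed and 6.59 and 13.1 in cKO hearts. Heart cKO 4 had Y-linked transcripts near 0 (summed 0.0799 CPM), whereas the other hearts lay between 222.7 and 375.4 CPM. Xist, a transcript of female cells, had a maximum of 612.1 and a median of 0.688 CPM in cKO hearts, against at most 2.02 CPM in the other groups. The labels give no sex. In the P1 comparison only cKO 4 lacked Y-linked transcripts, so the cKO and floxed groups were not balanced for them. The 5 cardiomyocyte markers summed to 56880 to 64610 CPM in WT, 40780 to 56530 in KI/KI, 29210 to 33960 in floxed and 23080 to 25430 in cKO hearts. The sum was lower in both mutants than in their controls without overlap, and Myh6 made up most of it (mean 42180 CPM in WT). In KI/KI hearts all 5 were lower and 0 passed an adjusted p under 0.05 in edgeR. In cKO hearts 4 were lower, and 2 of them passed, where 1160 of 15317 tested genes passed as lower. Actn2 was higher in cKO hearts (log2 fold change 0.32, SE 0.14). The part of these markers in the CPM of other genes was not tested. Hepatocyte markers summed to at most 2.85 CPM. Lung epithelial markers reached 100.4 CPM in WT 3, 44.6 in floxed 2, 34.7 in KI/KI 4, 28.2 in floxed 1, 18.9 in cKO 4 and 3.26 in cKO 6, and lay at or below 0.521 CPM in the other hearts.

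The 3 C1q genes lie side by side on chromosome 4 of GRCm38, all on the minus strand, with C1qb at 136880129 to 136886187, C1qc at 136889804 to 136893065 and C1qa at 136895917 to 136898803. RefSeq promoter entries (GRCm38.p6) were matched for 5 of the 9 genes, C1qb, C1qc, C3, C3ar1 and C5ar1. The 250 bases before the RefSeq transcript start of C1qb and C1qc are shown because these adjacent genes had similar fold changes in each model. Each is written 5′ to 3′ on the gene's strand. Capitals mark the core GAGGAA of PU.1, a transcription factor of macrophages, on either strand, and in C1qc also 1 match to the NF-kB consensus (the second run in capitals).
C1qb, chr4:136886201-136886450, minus strand: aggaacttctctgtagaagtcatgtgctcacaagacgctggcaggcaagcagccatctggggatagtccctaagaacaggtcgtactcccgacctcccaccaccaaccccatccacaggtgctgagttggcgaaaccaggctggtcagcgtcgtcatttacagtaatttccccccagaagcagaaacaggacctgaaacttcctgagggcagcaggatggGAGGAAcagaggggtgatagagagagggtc
C1qc, chr4:136892915-136893164, minus strand: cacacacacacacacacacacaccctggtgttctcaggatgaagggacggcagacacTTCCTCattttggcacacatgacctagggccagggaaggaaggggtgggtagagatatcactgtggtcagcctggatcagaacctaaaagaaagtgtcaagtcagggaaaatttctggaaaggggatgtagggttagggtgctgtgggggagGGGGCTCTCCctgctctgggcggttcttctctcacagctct
The PU.1 core lay 30 to 25 bases before the start of C1qb on the gene's strand and 193 to 188 bases before that of C1qc on the other strand. Of 27025 mouse promoter windows of the same length, 23.1% held this core and 3.8% the NF-kB consensus. C5ar1 had 1 match to the interferon response core GAAANNGAA, 66 to 58 bases before its start and on the other strand, a core found in 7.2% of windows. The RefSeq starts of C1qc and C5ar1 lie inside the gene spans given in this report, which come from another annotation. The NF-kB match of C1qc and the C5ar1 match therefore fall within those spans, and the PU.1 core of C1qc does not. The STAT site TTCNNNGAA, in 7.2% of windows, was not among the letters of the 5 windows, and C3 and C3ar1 held none of the 4 motifs on either strand. Such matches describe the letters and are not evidence of binding.

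In adult WT hearts Serping1 had the highest level of the 9 genes per kilobase, at 78.3 ± 8.89 CPM per kilobase (mean ± SD, n = 3), and its range lay above all others. C3 (45.3 ± 11.8) and C1qa (40.2 ± 5.37) followed with ranges that overlapped, then C1qc (32.6 ± 2.09) and C1qb (31.9 ± 2.53), which also overlapped each other. C4b stood lower, at 5.52 ± 2.88 CPM per kilobase. C5ar1 (2.77 ± 0.30), C3ar1 (2.66 ± 0.89) and Cfb (2.16 ± 0.98) came last, and the neighbours among them in that order could not be separated by their ranges. KI/KI hearts kept nearly this order, with C1qa at 51.9 ± 2.29 and C3 at 49.4 ± 3.13 CPM per kilobase exchanging places within overlapping ranges, as did C3ar1 (4.11 ± 0.85) and C5ar1 (3.38 ± 0.58). In floxed P1 hearts the leading 5 genes were close together, from 16.6 ± 3.51 for Serping1 to 10.4 ± 0.41 for C1qc, and C4b was last at 0.512 ± 0.277 CPM per kilobase. In cKO hearts C1qa led with 25.0 ± 10.5 CPM per kilobase, its range overlapping that of Serping1 (23.15 ± 4.195), and C3 stood below all C1q genes at 6.42 ± 6.37.

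**Figure D1:**
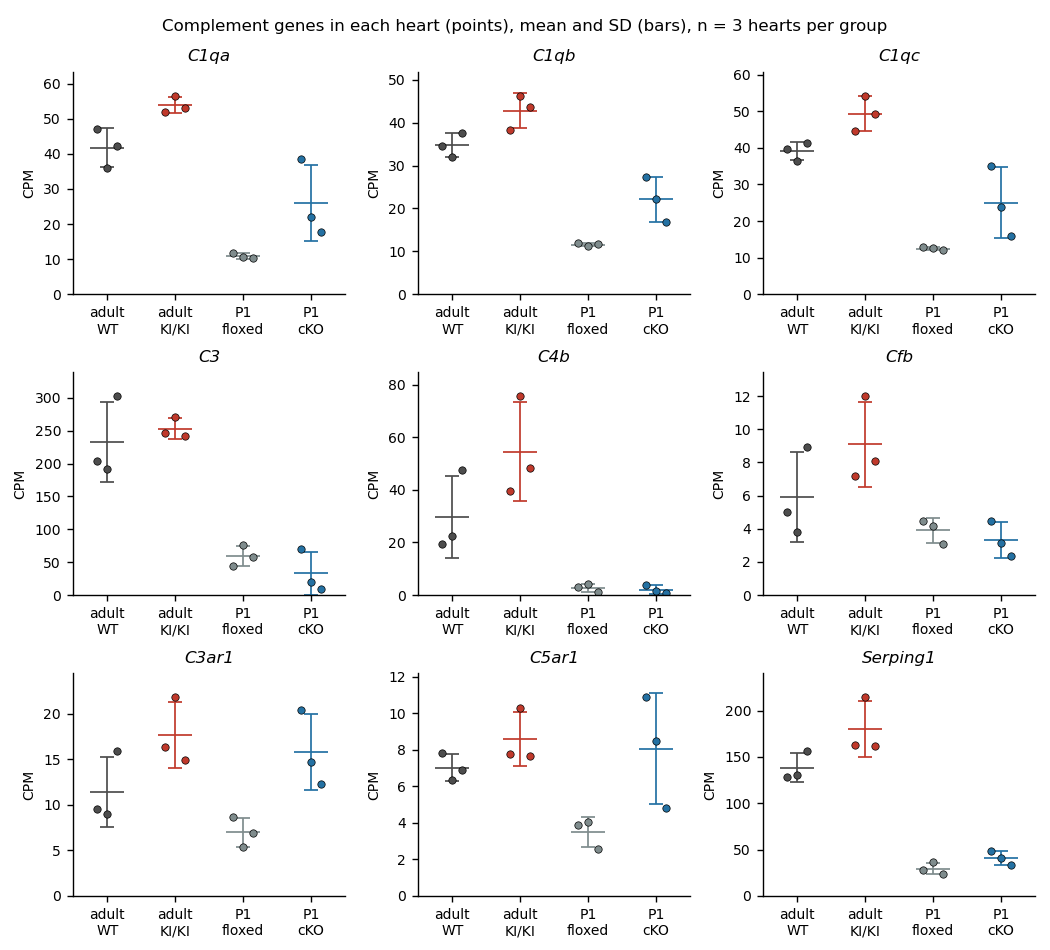
CPM of each complement gene (vertical axes, linear from 0) in the 4 groups; points are hearts in replicate order, the wide bar is the mean and the whiskers are the SD of 3 hearts. The C1q genes and C3ar1 sit higher in all cKO than in all floxed hearts, whereas C3 in cKO hearts spreads from 8.51 to 70.1 CPM.

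C1q transcripts rose in P1 cKO hearts. C1qa stood at 11.8, 10.6 and 10.2 CPM in floxed 1 to 3 and at 38.4, 21.9 and 17.8 in cKO 4 to 6. All cKO hearts lay above all floxed hearts, and the log2 fold change was 1.27 (SE 0.30), a 2.41-fold rise with an adjusted p of 0.0315 in edgeR's quasi-likelihood test. C1qb stood at 11.9, 11.2 and 11.6 CPM in floxed and at 27.3, 22.3 and 16.7 in cKO hearts. The groups did not overlap, with a log2 fold change of 0.94 (SE 0.19, adjusted p = 0.0219, edgeR). C1qc stood at 12.9, 12.6 and 11.96 CPM in floxed and at 35.2, 23.9 and 15.9 in cKO hearts. Its groups did not overlap either, but its log2 fold change of 1.01 (SE 0.28) just missed the threshold, with an adjusted p of 0.0508 in edgeR and 0.00313 in DESeq2. The floxed hearts lay close together (SD 0.374 to 0.794 CPM for the 3 genes) and the cKO hearts far apart (5.27 to 10.9), with cKO 4 highest and cKO 6 lowest for each gene. In a bulk sample a change in the number of cells of a type and a change in RNA per cell cannot be told apart.

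The anaphylatoxin receptors showed the same arrangement. C3ar1, the receptor for C3a (chromosome 6, 122847138 to 122856161, minus strand), stood at 8.62, 5.39 and 6.93 CPM in floxed and at 20.4, 14.8 and 12.3 in cKO hearts. It rose by a log2 fold change of 1.19 (SE 0.25), or 2.28-fold, with an adjusted p of 0.0244 in edgeR's test. C5ar1, the main receptor for C5a (chromosome 7, 16246743 to 16259540, minus strand), stood at 3.88, 4.04 and 2.58 CPM in floxed and at 10.9, 8.46 and 4.84 in cKO hearts. The groups did not overlap, and the log2 fold change of 1.22 (SE 0.34) had an adjusted p of 0.0503 in edgeR and 0.00448 in DESeq2. C1qa, C1qb and C3ar1 were therefore the 3 genes of the 9 that passed, where 16.9% of the 15317 tested genes passed in either direction and 9.32% passed as higher. Of the 3, C1qa and C3ar1 also exceeded a fold change of 2, a cut named in the study's statistics, as did 2.85% of tested genes in the upward direction. By DESeq2, with 25.3% of genes called, the count was 5, the 3 C1q genes and both receptors. Groups lay apart with cKO higher for those same 5 genes, against 19.9% of tested genes, and 6 of the 9 had an unadjusted p under 0.05 in the upward direction, against 18.5%. The median log2 fold change was 0.94 over the 9 genes and 0 over all tested genes. The calls depended on single hearts: leaving out floxed 1, 2 or 3 or cKO 5 left 0 genes past the threshold. Leaving out cKO 4 gave 4 in either direction, among them C3 as lower, and leaving out cKO 6 gave 5.

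The central components C3, C4b and Cfb had lower means in cKO hearts and did not pass the test. C3, the protein on which all pathways meet (chromosome 17, 57203970 to 57228136, minus strand), stood at 44.6, 75.5 and 58.2 CPM in floxed hearts and at 70.1, 20.3 and 8.51 in cKO 4, 5 and 6. Heart cKO 4 lay inside the floxed range, whereas cKO 5 and 6 lay below it. The log2 fold change was -0.82 (SE 0.68, adjusted p = 0.418, edgeR). Without cKO 4 it was -2.05 with an adjusted p of 0.0274 (edgeR). With a covariate for the Y-linked transcripts, which also sets cKO 4 apart, it was -2.15 with an adjusted p of 0.0309 (edgeR). C3 stayed uncalled in 13 of 15 alternatives, and with each library left out its log2 fold change ranged from -2.05 to -0.38. C4b stood at 3.07, 4.06 and 1.13 CPM in floxed and at 3.89, 1.54 and 0.608 in cKO hearts (log2 fold change -0.40, SE 0.67, adjusted p = 0.7, edgeR). Cfb stood at 4.47, 4.17 and 3.05 CPM in floxed and at 4.49, 3.15 and 2.33 in cKO hearts (log2 fold change -0.21, SE 0.29, adjusted p = 0.631, edgeR). In both genes the groups overlapped and cKO 6 was the lowest of the 6 hearts. Serping1 (chromosome 2, 84765387 to 84775444, minus strand) stood at 28.0, 36.1 and 23.8 CPM in floxed and at 48.5, 40.6 and 33.7 in cKO hearts. The lowest cKO heart lay inside the floxed range, and the log2 fold change of 0.48 (SE 0.20) had an adjusted p of 0.136 in edgeR's test.

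**Figure D2:**
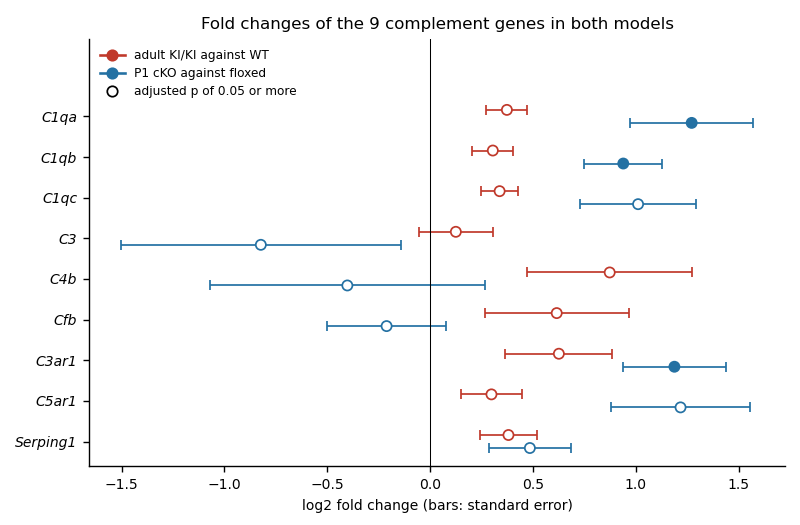
Log2 fold change (horizontal axis) of each complement gene in adult KI/KI against WT and P1 cKO against floxed hearts, n = 3 hearts per group, with standard errors as bars; filled points have an adjusted p under 0.05 in edgeR's test. All KI/KI values lie above 0, and in the cKO hearts the C1q genes and receptors lie to the right while C3, C4b and Cfb lie to the left with wide bars.

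In KI/KI hearts all 9 genes had a higher mean than in WT hearts, by small amounts that did not pass the test. C1qa stood at 47.2, 36.1 and 42.2 CPM in WT 1 to 3 and at 52.1, 56.6 and 53.2 in KI/KI 4 to 6. C1qb stood at 34.7, 32.0 and 37.5 in WT and at 38.4, 46.3 and 43.7 in KI/KI hearts, and C1qc at 39.6, 36.5 and 41.5 in WT and at 44.7, 54.3 and 49.2 in KI/KI hearts. For each C1q gene every KI/KI heart lay above every WT heart. The log2 fold changes were 0.37 (SE 0.10) for C1qa, 0.30 (SE 0.10) for C1qb and 0.34 (SE 0.09) for C1qc, with adjusted p-values of 0.233, 0.255 and 0.234 in edgeR and of 0.062, 0.147 and 0.0711 in DESeq2. Serping1 stood at 128.8, 130 and 156.7 CPM in WT and at 163.3, 214.6 and 161.8 in KI/KI hearts, again without overlap (log2 fold change 0.38, SE 0.14, adjusted p = 0.282, edgeR). The 6 fibroblast markers summed to 1312 to 1496 CPM in WT and 1489 to 2131 in KI/KI hearts, all 6 with a higher mean and 0 past the threshold in edgeR (1 at an unadjusted p under 0.05, and 0 in DESeq2), and their part in the Serping1 values was not tested.

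The remaining 5 genes overlapped between the adult groups. C4b, in the class III region of the major histocompatibility complex (chromosome 17, 34728380 to 34743882, minus strand), stood at 19.3, 22.4 and 47.5 CPM in WT and at 39.5, 75.6 and 48.4 in KI/KI hearts. WT 3 was above KI/KI 4, and the log2 fold change of 0.87 (SE 0.40) had an adjusted p of 0.331 in edgeR's test. Cfb, nearby at 34856374 to 34862518 on the same strand, stood at 4.98, 3.82 and 8.95 CPM in WT and at 7.18, 11.98 and 8.09 in KI/KI hearts (log2 fold change 0.62, SE 0.35, adjusted p = 0.404, edgeR). C3ar1 stood at 9.52, 8.95 and 15.9 CPM in WT and at 16.3, 21.8 and 14.9 in KI/KI hearts (log2 fold change 0.63, SE 0.26, adjusted p = 0.307, edgeR). In these 3 genes WT 3 was well above the other WT hearts and KI/KI 5 was highest of all. C3 stood at 204.2, 191.5 and 302.5 CPM in WT and at 246.8, 271.8 and 241.9 in KI/KI hearts, a log2 fold change of 0.12 (SE 0.18, adjusted p = 0.747, edgeR). C5ar1 ranged from 6.35 to 7.85 CPM in WT and from 7.67 to 10.3 in KI/KI hearts (log2 fold change 0.30, SE 0.15, adjusted p = 0.373, edgeR).

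In the adult comparison none of the 9 had an adjusted p under 0.05 in edgeR or DESeq2, where edgeR called 0% and DESeq2 3.77% of all tested genes. At an unadjusted p under 0.05 in edgeR 5 of the 9 were higher, the C1q genes, C3ar1 and Serping1, against 8.92% of all tested genes, and 4 of the 9 had groups apart with KI/KI higher, against 11.4%. The median log2 fold change was 0.37 over the 9 genes and 0 over all tested genes. With each library left out, the lowest log2 fold changes were 0.56 for C4b, 0.35 for Cfb, 0.44 for C3ar1 and -0.0018 for C3. Without WT 3 the log2 fold changes were highest, at 1.40 for C4b, 1.07 for Cfb, 0.95 for C3ar1 and 0.37 for C3. Their adjusted p-values without WT 3 were 0.195, 0.221, 0.191 and 0.206 in edgeR. Heart WT 3 also had the highest summed adipocyte markers of the WT hearts, 50.02 CPM against 5.53 and 2.60, and the highest lung markers, and the part of either in these values was not tested. C4b, Cfb and C3 lie on the chromosome that carries Lemd2, 7.52, 7.65 and 30.0 megabases from it. H2-Ea-ps, whose transcript differs between haplotypes of this region, was listed at 0 in all 12 hearts, so the haplotype could not be read from it.

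The difference between the responses of the 2 models, cKO against floxed minus KI/KI against WT, was tested as an interaction in a fit of all 12 hearts. None of the 9 genes passed in edgeR, with a smallest adjusted p of 0.132, where 2.43% of 15729 genes passed. DESeq2 called 1, C1qb, with an adjusted p of 0.0491, where it called 766 of all genes as higher and 577 as lower. At an unadjusted p under 0.05 in edgeR there were 4 of the 9 genes, all higher, against 1565 of 15729 tested genes. For these the response was larger in cKO hearts by 0.90 (SE 0.32) for C1qa, 0.64 (SE 0.21) for C1qb, 0.67 (SE 0.31) for C1qc and 0.92 (SE 0.39) for C5ar1 on the log2 scale. For C3, C4b and Cfb the differences were -0.96 (SE 0.76), -1.28 (SE 0.81) and -0.83 (SE 0.48). Their adjusted p-values were 0.523, 0.41 and 0.363 in edgeR, so no difference was shown for them. Leaving out cKO 6 gave 4 genes past the threshold, C1qa, C1qb, C1qc and C5ar1, and leaving out cKO 4 gave 1, C3, with a difference of -2.16 (adjusted p = 0.047). The models also differ in age and in the kind of allele, which cannot be told apart here.

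The 2 control groups differed from each other in most of the complement genes. In floxed P1 hearts 8 of the 9 genes were lower than in adult WT hearts at an adjusted p under 0.05 in edgeR, all without overlap. Of all tested genes 65.2% passed in either direction and 31.8% passed as lower. Groups lay apart as lower for 5225 of all 15183 tested genes. C4b showed the largest difference among the 9, from 29.7 ± 15.5 CPM in adult WT to 2.75 ± 1.49 in P1 floxed hearts (mean ± SD, n = 3), a log2 fold change of -3.44 (SE 0.51, adjusted p = 0.000891, edgeR). Serping1 fell by 2.24, C3 by 1.97, C1qa by 1.94, C1qc by 1.64 and C1qb by 1.58 on the log2 scale, whereas C5ar1 (2-fold lower, adjusted p = 0.00197, edgeR) and C3ar1 (1.65-fold lower, adjusted p = 0.0437, edgeR) differed less. Cfb stood at 5.92 ± 2.69 CPM in WT and 3.90 ± 0.75 in floxed hearts and did not pass (adjusted p = 0.129, edgeR). Age and line cannot be told apart in this comparison. The P1 floxed and adult WT hearts are also the controls of the comparisons above, so these values are not independent of them.

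The 3 C1q chains took similar but not constant shares. The C1qa share was at most 34.2% in floxed hearts and at least 36.7% in adult hearts. Per kilobase, C1qa took between 32.3% and 41.2% of the summed C1q level across the 12 hearts, C1qb between 27.5% and 35.0% and C1qc between 28.9% and 33.8%. C1qa had the highest share in every adult heart and in every cKO heart. In floxed hearts all 3 shares lay between 32.3% and 35.0%. The ratio of C3 to C4b counts, a different measure, ranged from 3.6 to 10.6 in adult hearts and from 13.2 to 51.5 at P1.

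Some macrophage markers rose beside the C1q genes in cKO hearts. The 10 markers summed to between 137.3 and 160.9 CPM in floxed hearts and to 257.3, 174.0 and 131.5 CPM in cKO 4, 5 and 6, in the same order as C1q in the cKO hearts but with cKO 6 below every floxed heart. Of the 10, 3 rose at an adjusted p under 0.05 in edgeR, Adgre1 (log2 fold change 1.10, SE 0.16), Cd68 (1.03, SE 0.17) and Aif1 (0.90, SE 0.20), where 9.32% of all tested genes passed as higher. DESeq2 called 4, with Csf1r (0.42, SE 0.14) added. The most abundant markers in P1 hearts, Mrc1 (0.41, SE 0.38) and Lyve1 (-0.16, SE 0.50), did not pass. No marker of the 10 was at 0 in any group's hearts. The summed CPM of the C1q genes divided by that of the 10 markers was 0.234, 0.214 and 0.246 for the floxed hearts, and for cKO 4, 5 and 6 it was 0.392, 0.391 and 0.384. This ratio was higher in every cKO heart than in every floxed heart, but it rests on the abundant markers that did not pass. Against Adgre1 alone, chosen after its values were seen because it rose, the ratio was 6.62, 7.16 and 5.45 in the floxed group and 8.93, 6.55 and 3.62 in cKO 4, 5 and 6. Against Cd68, chosen the same way, it was 7.18, 8.69 and 8.17 in the floxed group and 12, 8.46 and 4.77 in the cKO group. Neither of these ratios separated the P1 groups, an outcome favoured by choosing markers that rose. In adults the ratio to the 10 markers was 0.444, 0.502 and 0.433 in WT and 0.453, 0.513 and 0.498 in KI/KI hearts, where the groups overlapped. In KI/KI hearts 8 of the 10 markers had a higher level and 0 passed the test in edgeR (3 at an unadjusted p under 0.05, and 2 in DESeq2), and their sum ranged from 293.2 to 306.6 CPM against 208.5 to 280.0 in WT hearts. The part of macrophage number in the C1q values was not tested.

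Mesothelial markers, genes of the surface layer of the heart, were summed beside C3 in the P1 hearts. Their order was that of C3 within each group and not across both groups. The 5 markers summed to 50.4, 88.99 and 64.5 CPM in floxed 1, 2 and 3, whose C3 stood at 44.6, 75.5 and 58.2 CPM. In cKO 4, 5 and 6 they summed to 100.3, 61.8 and 28.9 CPM beside 70.1, 20.3 and 8.51 CPM of C3. Within each group the hearts had the same order in both measures, but across the 6 hearts cKO 4 and cKO 5 ranked higher for the markers than for C3. For Upk3b, Upk1b and Msln, a subset chosen after the values were seen, the sum was 26.97, 53.3 and 37.7 CPM in the floxed and 50, 13.96 and 4.93 in the cKO hearts. Because of that choice, the order of this sum across the hearts adds nothing further about C3. Krt19 (log2 fold change 1.17, SE 0.73) was higher and Wt1 stood at -0.04 (SE 0.20). Of the 5 markers 4 had a lower mean in cKO hearts and 0 passed the test in edgeR (0 at an unadjusted p under 0.05, and 0 in DESeq2). The part of mesothelial tissue in the C3 values was not tested.

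**Figure D3:**
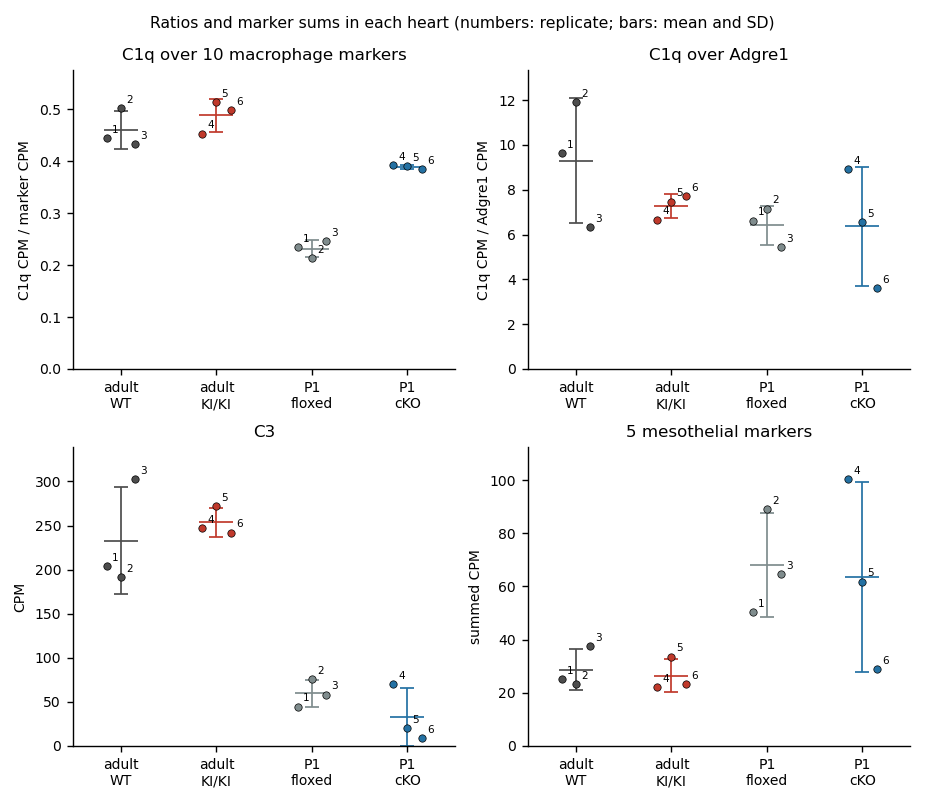
Top left, summed CPM of the 3 C1q genes over that of the 10 macrophage markers; top right, the same over Adgre1; bottom left, C3 in CPM; bottom right, summed CPM of the 5 mesothelial markers. Points are single hearts with replicate numbers and bars the mean and SD of 3 hearts. The ratio to 10 markers separates floxed (0.214 to 0.246) from cKO hearts (0.384 to 0.392). The ratio to Adgre1 does not, but Adgre1 was chosen because it rose in cKO hearts, which favours overlap. C3 and the mesothelial sum both run from cKO 4 down to cKO 6.

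The rest of the complement system was followed in a list of 45 other genes, of which 30 passed the filter on low counts in the P1 comparison and 32 in the adult one. In cKO hearts 18 of the 30 were higher and 12 lower than in floxed hearts (median log2 fold change 0.22), and 3 rose at an adjusted p under 0.05 in edgeR while 0 fell (3 lower at an unadjusted p under 0.05, and 4 higher and 1 lower in DESeq2). Of all tested genes 9.32% passed as higher, a share close to that of the list. Masp1, a protease of the lectin pathway, stood at 12.3, 12.6 and 10.9 CPM in floxed and at 33.8, 25.1 and 20.8 in cKO hearts (log2 fold change 1.16, SE 0.20, adjusted p = 0.0143, edgeR). Cd55, which speeds the decay of the convertases on the cell surface, stood at 15.6, 19.5 and 16.03 CPM in floxed and at 57.2, 52.0 and 27.6 in cKO hearts (log2 fold change 1.43, SE 0.28, adjusted p = 0.0193, edgeR). Itgb2, the shared beta chain of the leukocyte complement receptors, stood at 3.52, 2.63 and 3.03 CPM in floxed and at 6.55, 5.27 and 4.79 in cKO hearts (log2 fold change 0.86, SE 0.20, adjusted p = 0.0314, edgeR). Each of the 3 was higher in every cKO than in every floxed heart. Its partner chain Itgam had a log2 fold change of 0.89 (SE 0.41, adjusted p = 0.168, edgeR), with cKO 6 inside the floxed range.

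Other complement genes were uneven among the cKO hearts. Clu, encoding clusterin, stood at 111.1, 133.8 and 120.4 CPM in floxed and at 288.7, 257.4 and 120.7 in cKO hearts, with an adjusted p of 0.0936 in edgeR and 0.0161 in DESeq2. For Clu cKO 4 and 5 lay above the floxed hearts and cKO 6 did not. C1s1, a protease that C1q activates, named after its values were seen, was the 1 gene of the list that DESeq2 called lower, with 9.52, 11.3 and 5.89 CPM in floxed and 5.89, 2.67 and 4.69 in cKO hearts (adjusted p = 0.0886 in edgeR and 0.0255 in DESeq2). C2, the classical pathway's counterpart of Cfb, had a log2 fold change of -0.02 (SE 0.45), and C5ar2, a second receptor for C5a, one of 0.82 (SE 0.43, adjusted p = 0.22, edgeR). Hc, which encodes C5 in the mouse, had at most 0.315 CPM in any heart and was not tested.

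In KI/KI hearts 22 of the 32 tested genes of that list were higher and 10 lower (median log2 fold change 0.17), and 0 passed the adjusted p in edgeR. At an unadjusted p under 0.05 in edgeR there were 6 higher and 2 lower, where 8.92% of all tested genes were higher and 1062 of 14592 lower. DESeq2 called 2, both higher, of which 1 is described here, where it called 3.77% of all tested genes. C7, a component of the membrane attack complex that was named after its values were seen, stood at 26.5, 17.7 and 9.03 CPM in WT and at 47.7, 47.8 and 37.2 in KI/KI hearts (log2 fold change 1.33, SE 0.34, adjusted p = 0.221 in edgeR and 0.00411 in DESeq2). The C7 groups did not overlap. Itgb2 (0.60, SE 0.17), Cd55 (0.63, SE 0.23) and C5ar2 (0.76, SE 0.33) also lay higher in every KI/KI heart than in every WT heart without passing the test. Of the list, 7 genes had groups apart with KI/KI higher and 3 with KI/KI lower. Over all 14592 tested genes 1669 lay apart as higher and 1517 as lower. Clu (0.45, SE 0.20), C2 (0.68, SE 0.41) and Itgam (0.30, SE 0.25) overlapped between the groups. Cfd, which encodes adipsin and is made mainly by fat cells, stood at 4.24, 1.13 and 22.4 CPM in WT and at 5.09, 14.6 and 3.85 in KI/KI hearts, and was at most 0.17 CPM at P1. In floxed against adult WT hearts 31 genes of the list were tested, of which 3 were higher and 19 lower at an adjusted p under 0.05 in edgeR, where 65.2% of all tested genes passed and 31.8% passed as lower.

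**Figure D4:**
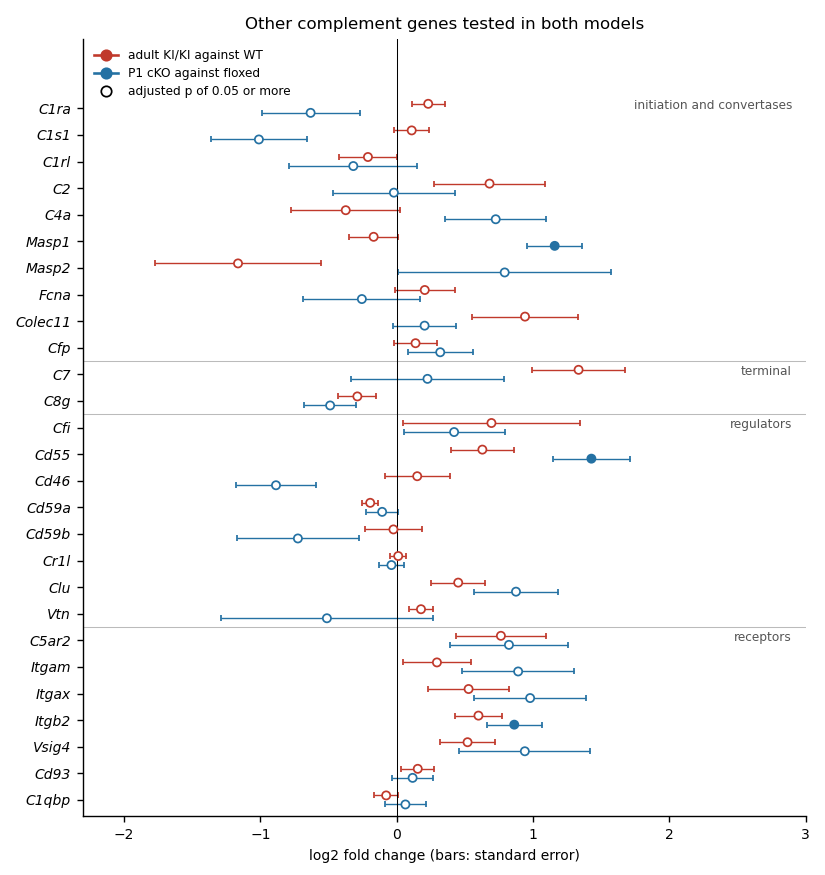
Log2 fold change (horizontal axis) with standard error of 27 other complement genes tested in both comparisons, n = 3 hearts per group, ordered by role; filled points have an adjusted p under 0.05 in edgeR's test. Masp1, Cd55 and Itgb2 are filled in the cKO comparison and none is filled in the KI/KI comparison.

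C4a, a near-identical neighbour of C4b on chromosome 17 (34809092 to 34823464), was counted at no more than 0.535 CPM in any heart. Reads that the counting could not place on one of these copies may be split or lost, so the level of C4b is uncertain, and C4a itself had a log2 fold change of -0.37 (SE 0.40) in KI/KI and 0.73 (SE 0.37) in cKO hearts, neither past the threshold. Cfb shares exon bases with Gm20547 on the same strand, a gene that was not a symbol of the table, and the longest overlap with a single Gm20547 exon was 234 bases. The strand setting of the counting is not given in the sources used here.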

How the data were processed

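Total heart RNA was isolated with TRIzol and a column kit, and polyadenylated RNA was made into libraries that were sequenced as single 75-cycle reads. Per the labels and the study's methods, the authors used Trim Galore to trim the reads and STAR 2.7.2b for alignment to mm10, used SAMtools 1.9 and Bowtie2 2.3.4.3 for handling and quality checks, counted reads per gene with HTSeq and tested with DESeq2. The strand setting is not given in the sources used here. The deposited values are raw counts per gene symbol for 12 hearts, with no normalization, and no pair of replicates held identical counts.

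The analysis used edgeR 4.0.16 in R 4.3.3. For a comparison its 6 libraries were scaled by TMM, filtered with filterByExpr and fitted with the robust quasi-likelihood model, and p-values were adjusted over all tested genes by the Benjamini-Hochberg method. Genes with an adjusted p under 0.05 were called, and counts that also require more than a 2-fold change are marked as such. The models were compared by an interaction term in a fit of all 12 libraries. Standard errors were taken as the log2 fold change divided by the root of the F statistic. Levels per kilobase used the length of the principal transcript in GENCODE M21 (GRCm38), which also gave positions, and promoter windows came from a RefSeq table. Alternatives were DESeq2 1.42.0, a single fit of all 12 libraries, limma-voom (limma 3.58.1), no filter or a minimum of 10 counts in each library, RLE scaling, non-robust dispersion, a fold change above 2, a Y-linked covariate and each library left out, and legacy dispersion was added after seeing the data. The code was tested on simulated counts.

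The 9 genes, the list of 45 other complement genes and the marker lists were chosen with earlier results of these data known. All 9 genes are named. Other complement genes are named if called in a genotype comparison, or if on a short list of key components (C4a, Cfd, C2, Hc, Clu, Cd55, C5ar2, Itgam and Itgb2). Macrophage and other markers are named to describe a list, and genes chosen after their values were seen are marked. The values of 1 gene of the list are not reported here.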

Additional observations from a re-analysis of the deposited data

Results flagged for a closer look

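Masp1, which encodes a protease of the lectin pathway, was the 1 gene that edgeR called in the interaction test between the models among the 9 complement genes and the 34 others tested, where it called 2.43% of all tested genes, a share close to this one. DESeq2 also called C1qb (adjusted p = 0.0491). The difference in log2 fold change, cKO against floxed minus KI/KI against WT, was 1.33 (SE 0.29, adjusted p = 0.0401 in edgeR and 0.000592 in DESeq2). The cKO hearts showed a log2 fold change of 1.16 (SE 0.20), and the level was higher in 3 of 3 cKO hearts than in any floxed heart. In KI/KI hearts it was -0.17 (SE 0.18, adjusted p = 0.654, edgeR), with 16, 22.1 and 16.9 CPM in the KI/KI hearts and 20.5, 25.3 and 16.5 CPM in the WT hearts, so the groups overlapped. Age and allele differ between the models and cannot be told apart.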

How the results depend on the processing

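In KI/KI hearts 0 of the 9 genes passed under every alternative run, edgeR, DESeq2 and limma-voom included. In cKO hearts the count of 3 became 5 with DESeq2, 5 with RLE size factors, 5 with at least 10 counts in every library and 5 with all 12 libraries in one fit, and ranged from 0 to 5 with each library left out. The cause was not tested. In floxed against adult WT hearts it ranged from 7 to 9 with each library left out. For the interaction the count of 0 became 1 with DESeq2 and ranged from 0 to 4 with each library left out. With each library left out, the log2 fold change of C3 in KI/KI hearts ranged from -0.0018 (without WT 2) to 0.37 (without WT 3), and the interaction of Serping1 from -0.034 (without cKO 4) to 0.29 (without floxed 2), with -0.023 without floxed 3. Over the single genes and alternatives 502 values kept their side of the threshold and direction, 19 passed newly, 16 no longer passed and these 3 changed sign. With the Y-linked covariate C3ar1 in cKO hearts stood at 0.91 with an adjusted p of 0.0502 in edgeR. No such covariate was run in adult hearts, all of which expressed the Y-linked genes. No paired analysis was possible because the groups compared share no replicate numbers. With 3 hearts per group, values near the threshold, such as those of C1qc and C5ar1, cannot be placed firmly on either side.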
